A study of Rattus norvegicus with 12 samples.

Results

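The hypoxia-inducible factor (HIF) pathway and its non-glycolytic target genes were followed in rat H9C2 cells through hypoxia and reoxygenation, with and without extra LITAF. The set was given by gene name, with no cut on measured values, and was chosen with earlier results of these data known. It holds 33 genes: the HIF subunits, the enzymes that sense oxygen or turn HIF over, Jumonji demethylases, and target genes outside glycolysis. Of these, 31 had a row among the 16002 gene IDs used, and 28 passed a filter on low counts that left 11398 genes to test. Egln1 and Egln3, which code for prolyl hydroxylases, were not analysed here. Epas1, Ak4 and Ndrg1 had too few reads to test.

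H9C2 is an established line of heart-derived rat myoblasts, labelled cardiomyoblast, with the genotype wild type or, in the LITAF group, LITAF overexpression. RNA was sequenced from 12 libraries in 3 groups of 4, all placed by the labels in 1 batch. Control cells stayed under normal oxygen and carried no lentiviral vector. The H/R group carried an empty lentiviral vector and had 8 h of hypoxia at 1% oxygen, then 2 h of reoxygenation. The LITAF group carried a lentivirus that overexpresses LITAF, a protein of late endosomes and lysosomes, and had the same hypoxia and reoxygenation. The labels give neither the promoter of the vector nor the age of the cultures. Since control cells had neither vector nor H/R, the effects of both cannot be told apart in a comparison with control. The labels call the replicates biological without naming separate cultures, and the spread behind the p-values may therefore be partly technical.

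HIF is a pair of proteins, an oxygen-labile alpha subunit (HIF1A or EPAS1) and the stable partner ARNT. When oxygen is present, the EGLN prolyl hydroxylases mark the alpha subunit, the VHL ubiquitin ligase recognises the mark, and the protein is destroyed. HIF1AN adds a separate hydroxyl group that blocks the binding of coactivators. In low oxygen these steps slow down, the alpha subunit builds up, and the pair binds short hypoxia response elements in its target genes. In heart muscle and its precursors the pathway is known for vascular growth signals, a shift in energy metabolism and matrix remodelling. Most of this control acts on HIF protein, which RNA counts do not show.

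Total counts ran from 19.2 to 20.7 M in the control libraries and from 16.9 to 18.4 M in the others, so all control libraries were deeper. Litaf stood at 2008 to 2691 CPM in the LITAF libraries, against 549 to 619 CPM in the H/R libraries and 456 to 491 CPM in control. CPM is counts per M reads after TMM scaling. Of 13 cardiac markers 6 passed the count filter, with Nkx2-5, Gata4, Mef2c, Hand2, Tnnt2 and Pln detected, while the defining genes Myh6, Myh7, Actn2, Ryr2, Nppa and Nppb all had group means under 1 CPM. The muscle regulators Myod1 and Myog were present, and summed skeletal myoblast markers stood at 2198 to 6453 CPM in control and 503 to 642 CPM in the other libraries. Summed cardiac markers stood at 1580 to 1660 CPM in control, 161 to 203 CPM in H/R and 243 to 320 CPM in the LITAF group, with Pln at 1119 CPM in control and 4.30 CPM in H/R. Most of the skeletal sum in control was Myog, at 3870 CPM against 14.1 CPM in H/R. Not all markers of these lists were lower: Nkx2-5 stood at 6.84 CPM in control and 16.5 CPM in H/R, and Des at 3.70 and 13.0 CPM. Summed fibroblast markers fell in the same direction, from 60280 to 76150 CPM in control to 23590 to 36330 CPM in the other libraries. Summed smooth muscle markers were higher with H/R, at 4127 to 5073 CPM in control, 6582 to 6921 CPM in H/R and 5377 to 8253 CPM in the LITAF group. Most of that sum was Acta2, at 3359 CPM in control and 5033 CPM in H/R. Means of Tagln, Cnn1 and Smtn were also higher in H/R, whereas Myh11 went the other way, from 30.2 to 8.21 CPM. Summed epithelial markers, nearly all Krt8, lay between 28.0 and 76.0 CPM. Endothelial markers stayed at or under 1.39 CPM and leukocyte markers at or under 1.71 CPM in every library. The part of these shifts in the results below was not tested.

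The regulatory sequence before a gene's start is where HIF can bind, so promoters were read for the core hypoxia response motif, ACGTG or GCGTG on either strand. Windows of 300 bases, 250 before to 50 after the start, came from RefSeq (build GRCr8), and 30 of the 33 genes had one. The windows below belong to Adm, the gene that changed with LITAF, and to Ankrd37, Fam162a and Vegfa, the genes with the largest rises after H/R. They are written 5′ to 3′ on the gene's strand, with each motif in capitals.
Adm (chr1:174179950-174180249, plus strand): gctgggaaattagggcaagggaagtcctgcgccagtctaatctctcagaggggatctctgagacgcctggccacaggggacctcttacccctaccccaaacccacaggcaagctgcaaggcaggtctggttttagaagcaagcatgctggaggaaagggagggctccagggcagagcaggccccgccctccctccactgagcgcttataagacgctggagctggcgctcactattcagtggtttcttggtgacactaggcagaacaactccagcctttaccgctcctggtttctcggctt
Ankrd37 (chr16:53001257-53001556, plus strand): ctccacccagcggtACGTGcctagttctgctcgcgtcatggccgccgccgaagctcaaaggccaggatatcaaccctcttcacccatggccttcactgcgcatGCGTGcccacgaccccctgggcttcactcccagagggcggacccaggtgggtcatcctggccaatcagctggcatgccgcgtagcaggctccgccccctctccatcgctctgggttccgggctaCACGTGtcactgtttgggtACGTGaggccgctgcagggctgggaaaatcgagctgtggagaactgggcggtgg
Fam162a (chr11:78186051-78186350, plus strand): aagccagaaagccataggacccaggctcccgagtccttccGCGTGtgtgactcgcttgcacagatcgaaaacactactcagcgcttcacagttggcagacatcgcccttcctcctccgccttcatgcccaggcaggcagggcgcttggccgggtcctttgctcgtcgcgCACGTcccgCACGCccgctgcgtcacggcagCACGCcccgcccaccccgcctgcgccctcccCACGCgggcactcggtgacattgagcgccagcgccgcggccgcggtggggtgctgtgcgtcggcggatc
Vegfa (chr9:22452604-22452903, plus strand): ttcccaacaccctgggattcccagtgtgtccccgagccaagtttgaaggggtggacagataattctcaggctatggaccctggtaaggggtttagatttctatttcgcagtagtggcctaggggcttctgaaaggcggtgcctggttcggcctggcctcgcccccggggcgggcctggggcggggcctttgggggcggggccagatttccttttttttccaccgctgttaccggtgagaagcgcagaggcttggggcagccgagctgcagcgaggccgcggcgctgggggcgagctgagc

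Ankrd37 had 4 motif sites in its window and Fam162a 5, whereas Adm and Vegfa had none in theirs. The site of Ankrd37 that begins 23 bases before the start lies in the palindrome CACGTG, which is also an E-box, a binding site of other basic helix-loop-helix factors. For Vegfa the table holds another start as well, and its window had no site either. Of the 30 genes with a window, 22 (73.3%) had at least 1 site. The share was 63.6% of the 9395 tested genes with a window and 44.6% of all 27457 genes in the promoter table. Among the 20 members with a window that rose after H/R, 16 (80.0%) had a site, against 68.2% of the 3021 windowed genes that rose, and so had 4 of the 6 tested members that did not pass (66.7%). These shares describe letters in a short window, and such matches are frequent in promoters of all kinds. The palindrome was found in 6 of the 30 windows, and in 10.2% of the tested genes with a window. No match says only that these letters are not in this window.

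**Figure D1:**
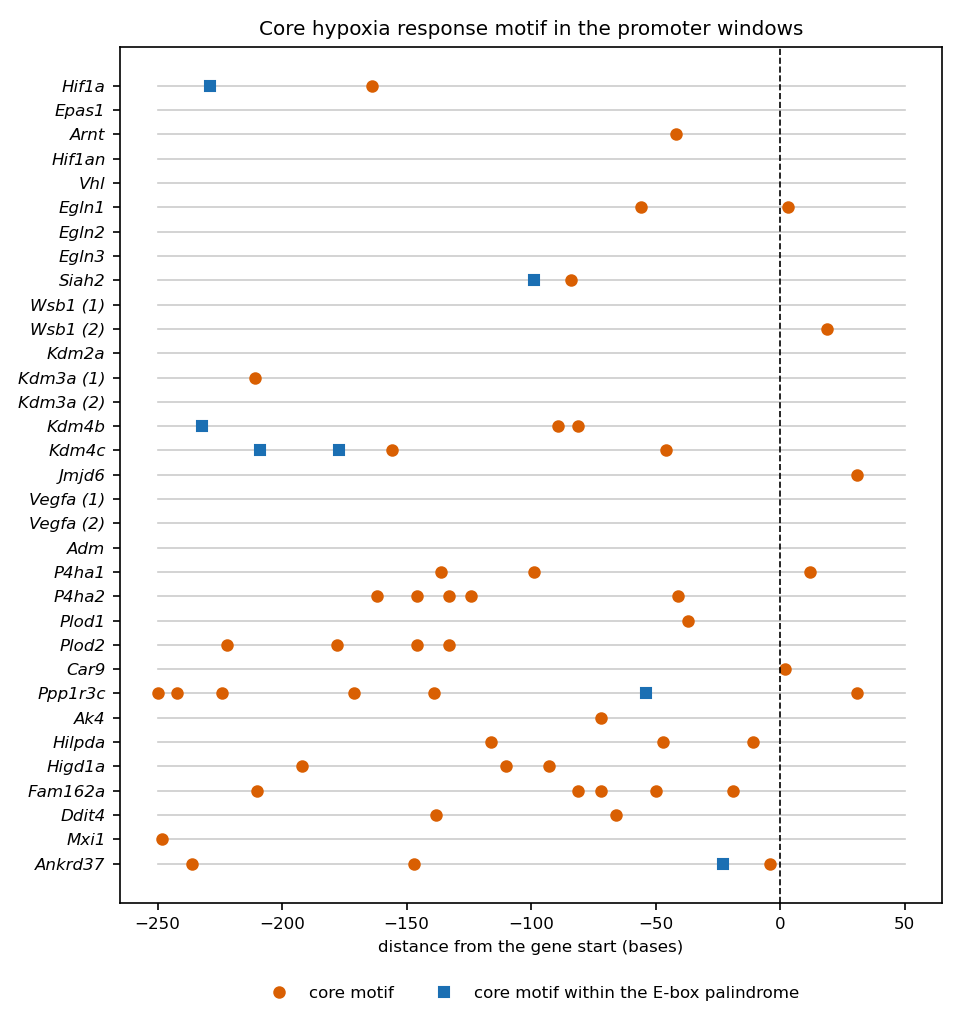
Positions of the core hypoxia response motif in the promoter windows of the members, in bases from the gene's start (dashed line). Each grey line is 1 window, circles are motif sites, squares are sites inside the E-box palindrome, and genes with 2 starts in the table have 2 lines; the windows of Adm and Vegfa are empty, and that of Fam162a holds 5 sites.

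The comparison of H/R with control asks which members respond to hypoxia and reoxygenation, together with the empty vector. Of the 28 tested members, 22 rose and none fell (edgeR's quasi-likelihood test, Benjamini-Hochberg adjusted p under 0.05). At an unadjusted p under 0.05 the count of falls was 1, Kdm2a, and DESeq2 also called that 1. The share that rose was 78.6%, against 31.8% higher calls among all 11398 genes tested. Falls made up another 31.8% of all genes. The CPM ranges of the groups did not overlap in 22 members with H/R higher (30.2% of all genes) and in 1, Kdm2a, with H/R lower (28.3% of all genes). In 16 members the rise was at least 2-fold, against 9.57% of all genes. The median log2 fold change was 1.14 over the members and 0.01 over all genes. Library totals alone or upper-quartile scaling moved the median of all genes to 0.13 and 0.12, and 22 members rose under both.

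**Figure D2:**
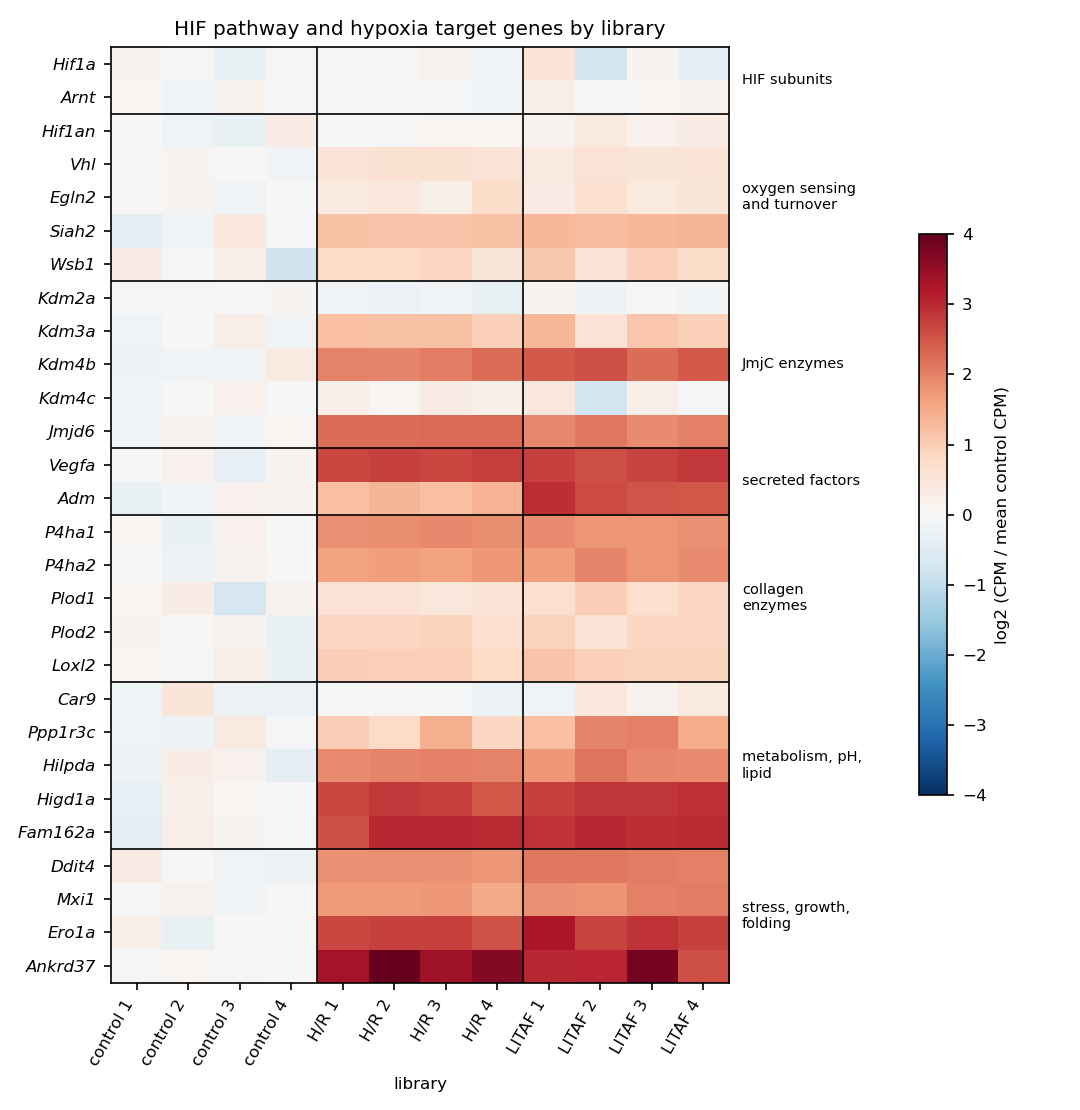
Heat map of the 28 tested members (rows, grouped by role) in the 12 libraries (columns), coloured by the log2 ratio of CPM to the mean of the control libraries. The H/R and LITAF columns are red in most rows, with the rows of Hif1a, Arnt, Hif1an, Kdm2a, Kdm4c and Car9 close to the control colour in most libraries.

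Neither tested HIF subunit passed the test at the RNA level. Hif1a stood at 84.8, 79.3, 64.2 and 80.0 CPM in control libraries 1 to 4 and at 80.0, 72.9, 84.5 and 71.4 CPM in the H/R libraries. The ranges overlapped, and the difference was log2 0.00 ± 0.20 (SE), with a 95% interval of -0.42 to 0.43. Arnt, the shared partner, read 57.6, 48.9, 60.1 and 52.6 CPM in control and 51.8, 53.7, 53.2 and 51.3 CPM after H/R, also overlapping (log2 -0.06 ± 0.10). Epas1, the alternative alpha subunit, had 0 counts in all control and H/R libraries, which allows up to 0.0397 CPM in control and 0.0412 CPM in H/R, for counting error only. In the LITAF group 3 of 4 libraries had a read, 5 in all. Arnt2, the paralog of Arnt and outside the set, fell from 117 ± 17.7 to 22.5 ± 2.14 CPM (SD, n = 4), with a log2 fold change of -2.38 ± 0.12.

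Of the genes that sense oxygen or turn HIF over, 4 of 5 tested rose. Vhl, the substrate receptor of the ligase that destroys HIF alpha, read 38.3, 40.4, 37.1 and 35.2 CPM in control and 53.7, 58.0, 57.5 and 54.5 CPM after H/R. All H/R libraries lay above all control libraries, and the rise was 1.48-fold (log2 0.57 ± 0.09, adjusted p = 4.29e-05 by edgeR's test). Siah2, a ubiquitin ligase that targets prolyl hydroxylases, read 13.3, 15.7, 22.6 and 16.0 CPM in control and 37.2 to 37.9 CPM after H/R. It showed the largest rise of this class, 2.22-fold, and its H/R libraries were almost identical, with a coefficient of variation of 0.719%. Wsb1, an adaptor of a ligase linked to VHL turnover, read 160, 130, 145 and 73.8 CPM in control and 221, 215, 232 and 177 CPM after H/R. Its ranges were separate although control library 4 was far below the others (1.66-fold, adjusted p = 0.00241 by edgeR's test). Egln2, a prolyl hydroxylase known to be less dependent on HIF than its relatives, rose 1.38-fold, from 25.4 ± 1.83 to 35.0 ± 5.05 CPM (SD, n = 4). Hif1an, the asparagine hydroxylase, stood at 68.8 ± 13.0 and 70.4 ± 2.32 CPM (log2 0.03 ± 0.12) and did not pass.

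Jumonji-domain enzymes also need oxygen, and 3 of the 5 tested rose. Jmjd6, which acts on lysines and arginines of nuclear proteins, read 15.7, 17.95, 15.5 and 17.8 CPM in control and 79.0, 78.2, 80.9 and 81.1 CPM after H/R. The groups lay far apart, 4.77-fold (log2 2.25 ± 0.10). Kdm4b, a demethylase of histone H3 and a known HIF target, read 4.64, 5.00, 4.94 and 6.96 CPM in control and 21.1, 20.8, 22.3 and 25.4 CPM after H/R. It rose 4.16-fold, and every H/R library lay above every control library. Kdm3a, another HIF-induced demethylase of histone H3, read 30.4, 34.3, 41.0 and 31.1 CPM in control and 78.3, 76.6, 76.9 and 66.1 CPM after H/R, a 2.18-fold rise. The close relative Kdm4c did not pass (log2 0.22 ± 0.19), and Kdm2a, at 176 ± 8.84 and 154 ± 8.38 CPM, had separate ranges with H/R lower but missed the threshold (log2 -0.20 ± 0.09, adjusted p = 0.0729 by edgeR's test).

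Both secreted vascular factors rose. Vegfa, the main growth factor for new vessels, read 136, 156, 109 and 146 CPM in control and 877, 919, 869 and 932 CPM after H/R. No library came near the other group, and the rise was 6.58-fold (log2 2.72 ± 0.11). Adm, which codes for the vessel-relaxing peptide adrenomedullin, read 10.4, 11.4, 13.9 and 13.6 CPM in control and 28.5, 31.7, 28.6 and 32.0 CPM after H/R. Its rise was smaller, 2.45-fold (log2 1.29 ± 0.13), again with separate ranges.

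All 5 collagen-modifying enzymes rose. P4ha1, the catalytic subunit of collagen prolyl 4-hydroxylase, read 157, 126, 172 and 148 CPM in control and 533, 547, 566 and 542 CPM after H/R (3.63-fold). P4ha2, its isoenzyme, read 63.4, 54.2, 68.4 and 62.7 CPM in control and 188, 197, 188 and 207 CPM after H/R (3.14-fold). Both subunit genes thus stood clear of control in every library. Loxl2, a lysyl oxidase that crosslinks collagen, read 119, 106, 131 and 93.9 CPM in control and 222, 216, 219 and 195 CPM after H/R (1.90-fold). The lysyl hydroxylases Plod1 and Plod2 rose 1.45-fold and 1.74-fold, with no overlap of the groups. Over the same libraries the summed fibroblast markers, mostly collagen genes that these enzymes act on, went down as given above, and the part of that shift was not tested.

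Among targets in metabolism, pH and lipid storage, 4 of 5 tested rose. Fam162a, which codes for a mitochondrial protein with a known HIF element, read 11.6, 18.4, 16.4 and 14.5 CPM in control and 90.9, 124, 123 and 120 CPM after H/R. The rise of 7.52-fold was among the largest, and H/R library 1 lay below the other H/R libraries. Higd1a, a regulator of mitochondrial respiration, read 4.13, 5.95, 5.46 and 5.23 CPM in control and 33.1, 36.6, 35.0 and 29.3 CPM after H/R (6.46-fold). Hilpda, an inhibitor of lipid droplet breakdown, read 6.78, 9.73, 8.85 and 6.20 CPM in control and 29.1, 30.6, 31.8 and 31.4 CPM after H/R (3.89-fold). In each of these genes the groups were separate. Ppp1r3c, a glycogen-targeting subunit of protein phosphatase 1, rose 2.04-fold from a low level (1.08 ± 0.208 to 2.21 ± 0.493 CPM, SD, n = 4). Car9, the carbonic anhydrase that is a standard hypoxia marker in other cells, did not pass, at 91.9 ± 24.5 CPM in control and 88.7 ± 7.11 CPM after H/R, log2 -0.05 with a 95% interval of -0.39 to 0.29. The adenylate kinase gene Ak4 had 1 read in control, 1 in H/R and 2 in the LITAF group, so a change was not detectable at this depth.

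Of the stress, growth and folding targets, all 4 tested rose. Ankrd37, a small ankyrin-repeat protein, had 2 reads in each control library (0.102 to 0.111 CPM) and read 1.07, 1.77, 1.12 and 1.35 CPM after H/R. Its log2 fold change of 3.56 ± 0.41 was the largest of the set and rests on few reads. Ero1a, an oxidase that drives disulfide formation in the endoplasmic reticulum, read 13.7, 9.73, 11.7 and 12.1 CPM in control and 75.8, 78.1, 79.6 and 69.3 CPM after H/R (6.39-fold). Ddit4, an inhibitor of mTORC1 signalling, read 49.3, 39.1, 36.0 and 34.1 CPM in control and 140, 142, 139 and 134 CPM after H/R (3.50-fold). Both were higher in every H/R library than in any control library. Mxi1, an antagonist of MYC, rose 3.18-fold, from 11.8 ± 0.873 to 37.7 ± 2.32 CPM (SD, n = 4). Ndrg1, a commonly used hypoxia marker, had only 12 reads in control, 26 in H/R and 22 in the LITAF group and was not tested.

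Several of these rises touch a difference in how the deposited values look. It followed the groups in whole libraries: 2.79% to 3.34% of values were not whole in control, against 11.09% to 12.25% in the H/R and LITAF libraries. The values of Fam162a and Jmjd6 were not whole numbers in all 8 columns with H/R and were whole in all 4 control columns, and for Mxi1 this held in 7 of the 8 columns. Over all tested genes, 911 had fractional values in all 8 H/R columns and in no control column; 42.0% of them were called higher in H/R (median log2 0.17), against 30.9% of the other 10487 genes (median log2 -0.01). How the control values were made and the H/R response cannot be told apart here. Adm, Vegfa, Ddit4, Kdm4b, P4ha1 and the other tested members, apart from a single value of Ero1a, had whole numbers throughout. In RefSeq, the spans of Egln2, Wsb1, Higd1a, Fam162a, Ero1a and Ankrd37 overlap another protein-coding gene, and the strand setting of the counting is not stated, so reads of such neighbours could be mixed in.

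**Figure D3:**
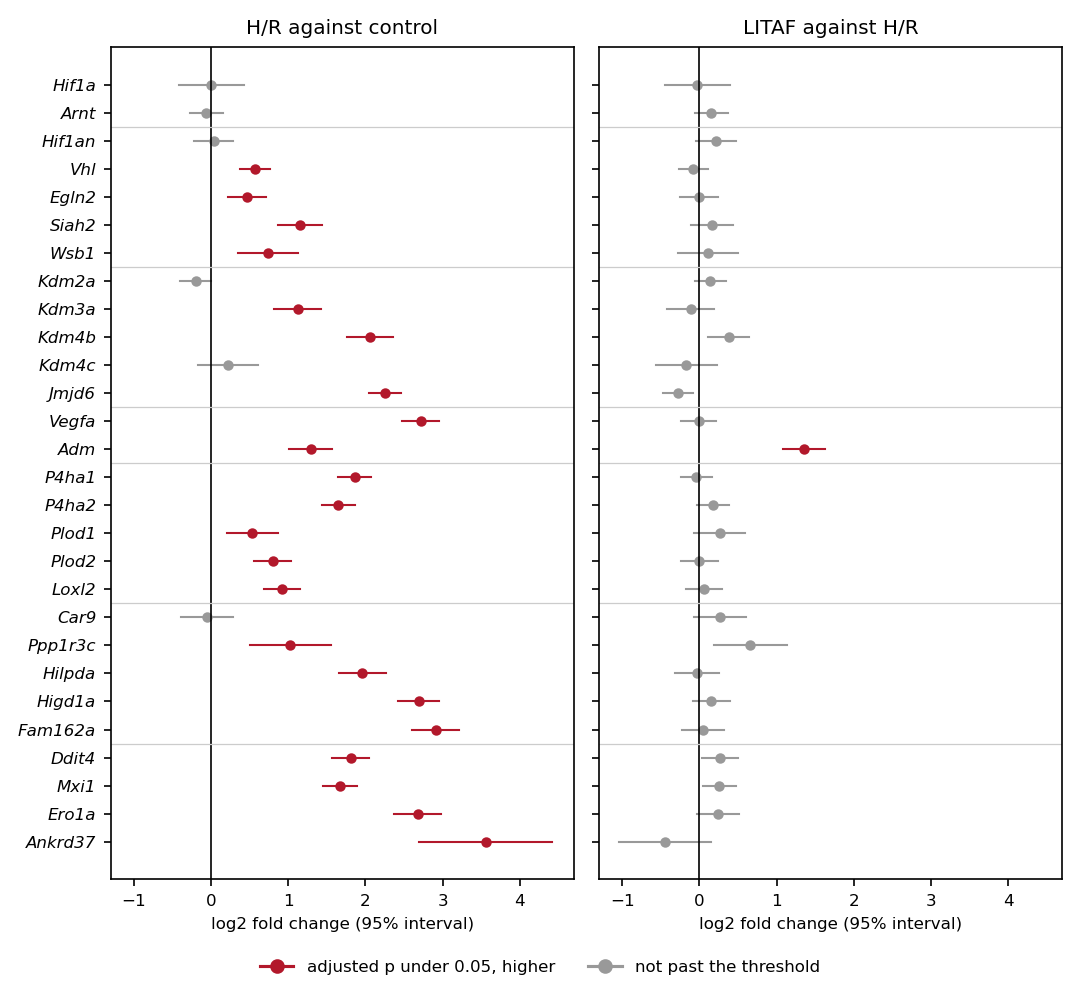
Log2 fold change of each tested member (point) with its 95% interval (line), for H/R against control on the left and LITAF against H/R on the right, on the same axis. Red marks an adjusted p under 0.05: 22 members on the left and Adm alone on the right.

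Setting the LITAF libraries against those of the H/R group asks whether extra LITAF alters this program when hypoxia, reoxygenation and the presence of a vector are shared. Of the 28 tested members, 1 rose, Adm, and none fell. That share, 3.57%, lies close to the 3.73% of all tested genes called higher, and 1.15% of all genes were called lower. Over all genes 556 were called (4.88%). Of these calls 76.4% were rises (425 higher, 131 lower), or 61.0% with library totals alone. Without LITAF library 1 the split was 692 higher and 593 lower (53.9% rises), and without LITAF library 4 it was 212 and 32 (86.9%). At an unadjusted p under 0.05, 5 members were higher and 1 lower, and DESeq2 called 1 higher and 0 lower. The median log2 fold change was 0.13 over the members and -0.01 over all genes.

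Adm read 95.1, 75.3, 70.1 and 69.1 CPM in LITAF libraries 1 to 4, against 28.5 to 32.0 CPM in the H/R libraries. Every LITAF library was more than 2-fold above every H/R library, and library 1 was the highest. The rise was 2.56-fold (log2 1.36 ± 0.13), and its adjusted p by edgeR's test was 6.46e-06. Against control, the Adm level of the LITAF group was 6.28-fold higher. Vegfa, the other secreted factor, read 904, 814, 891 and 964 CPM in the LITAF libraries, a range that took in that of the H/R group (log2 -0.01, 95% interval -0.23 to 0.21). The promoter windows of both genes, printed above, had no core motif.

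**Figure D4:**
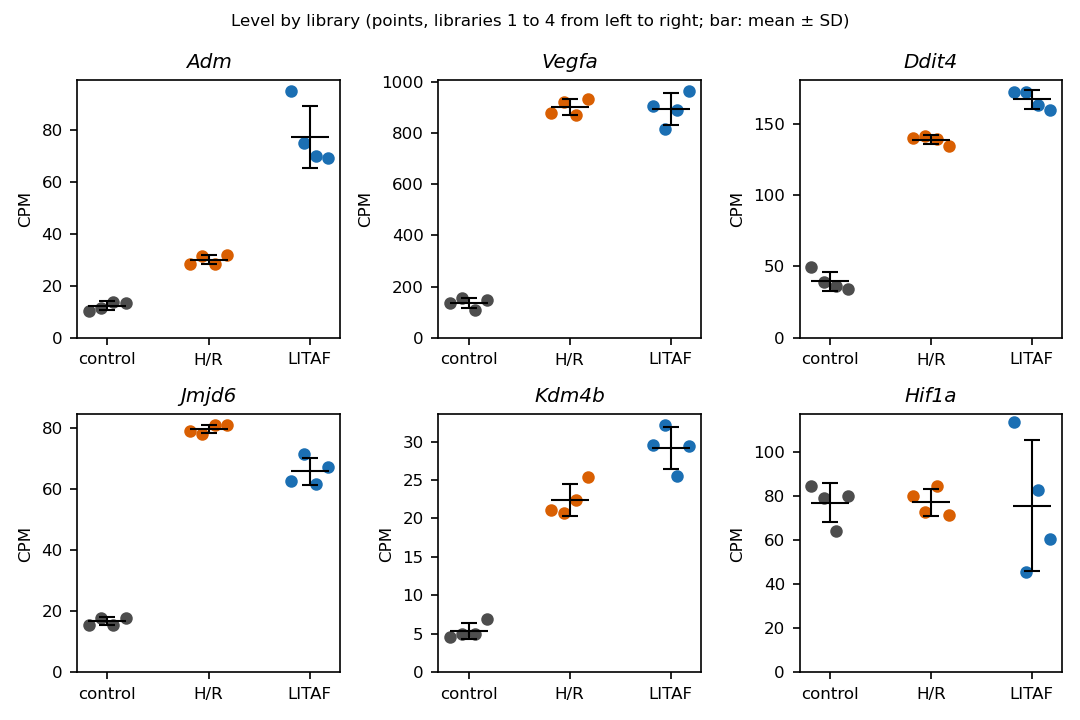
CPM of 6 members in each library (points, libraries 1 to 4 from left to right) with the group mean and SD (bars), on linear axes that start at 0. Adm is higher in all 4 LITAF libraries than in any H/R library, the ranges of Vegfa overlap, Jmjd6 is lower without passing the threshold, Ddit4 and Kdm4b are higher without passing the threshold, and Hif1a spreads from 45.8 to 114 CPM in the LITAF group.

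Of the other 27 members, 25 had a 95% interval of the difference that lay within a 2-fold change in either direction, and 22 within 1.5-fold. These intervals rest on a spread estimated over all 12 libraries, also where the LITAF libraries differed widely, as for Hif1a and Kdm4c. The exceptions at 2-fold were Ppp1r3c and Ankrd37, both with few reads. Ranges of the groups did not overlap for 7 members with LITAF higher, against 10.6% of all genes, and for 1 with LITAF lower, against 8.30% of all genes. Those higher were Adm, Hif1an, Siah2, Kdm4b, Plod1, Ddit4 and Mxi1, and Jmjd6 was lower. Ddit4 read 173, 173, 163 and 160 CPM, above the 134 to 142 CPM of the H/R libraries, at log2 0.27 ± 0.11 (adjusted p = 0.176 by edgeR's test). Kdm4b read 29.5, 32.1, 25.6 and 29.4 CPM against 20.8 to 25.4 CPM (log2 0.38 ± 0.13, adjusted p = 0.1004 by edgeR's test). Jmjd6 read 62.9, 71.5, 61.9 and 67.3 CPM against 78.2 to 81.1 CPM (log2 -0.28 ± 0.09, adjusted p = 0.0982 by edgeR's test). These 3 genes missed the threshold in the fit of all libraries and passed it in a fit of the H/R and LITAF groups alone, at adjusted p = 0.0178, 0.0353 and 0.0304 by edgeR's test. With the replicate number as a block in that fit of the groups alone, Ddit4 passed (adjusted p = 0.0450 by edgeR's test), while Kdm4b and Jmjd6 did not (adjusted p = 0.0561 and 0.0629). With the block in the fit of all libraries none of the 3 passed (adjusted p = 0.124 for Ddit4, 0.0597 for Kdm4b and 0.0825 for Jmjd6). Ppp1r3c, at 2.50, 4.15, 4.36 and 3.00 CPM against 1.88 to 2.93 CPM, passed with the replicate number as a block (log2 0.65 ± 0.18, adjusted p = 0.0391 by edgeR's test) but not without it (adjusted p = 0.101) and not with the block in the fit of the groups alone (adjusted p = 0.0728). It also passed, with no block, when LITAF library 1 was left out (log2 0.81, adjusted p = 0.0280 by edgeR's test). The block raised the count of all calls from 556 to 873.

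Against control, 22 members were higher in the LITAF group and none was lower, by edgeR's test as well as DESeq2 and at an unadjusted p under 0.05, with 32.0% of all genes higher and 32.6% lower. This comparison shares its control libraries with that of the H/R group. Values of the members stood side by side: Vegfa at log2 2.71 ± 0.11 in the LITAF group and 2.72 ± 0.11 in the H/R group, P4ha1 at 1.82 ± 0.10 and 1.86 ± 0.10, Hilpda at 1.93 ± 0.14 and 1.96 ± 0.14, and Higd1a at 2.85 ± 0.13 and 2.69 ± 0.13. Adm, at 2.65 ± 0.13 and 1.29 ± 0.13, was the member with the widest gap.

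The LITAF libraries differed among themselves more than the H/R libraries did. The median coefficient of variation over the tested members was 9.33% in the LITAF group, 6.07% in the H/R group and 14.1% in control, and over all genes 12.2%, 7.45% and 16.1%. Hif1a read 114, 45.8, 82.9 and 60.6 CPM in LITAF libraries 1 to 4, a 2.48-fold span, where the H/R libraries spanned 1.18-fold. Kdm4c read 35.2, 15.1, 30.7 and 24.9 CPM and Kdm3a 85.4, 50.9, 73.3 and 66.1 CPM, in the same order of libraries. Library 1 was thus the highest and library 2 the lowest for these genes. The full order 1, 3, 4, 2 from high to low also held for Wsb1, Kdm2a and Ero1a, 6 members in all (21.4%, against 24.0% of all tested genes). The opposite order held for 7 members, Hif1an, Vhl, Egln2, P4ha2, Plod1, Car9 and Fam162a (25.0%, against 21.3% of all genes). Car9, for example, read 84.2, 124, 101 and 119 CPM. The shares of members in either order lay near those of all genes, so the orders were not particular to the members. Litaf itself read 2691, 2008, 2532 and 2120 CPM in LITAF libraries 1 to 4, also in the order 1, 3, 4, 2. What lies behind these orders was not tested. For Hif1a, where the spread was widest, the 95% interval of the log2 difference between the LITAF and H/R groups ran from -0.45 to 0.40. That interval rests on a spread estimated over all 12 libraries, not on that of the LITAF libraries alone.

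**Figure D5:**
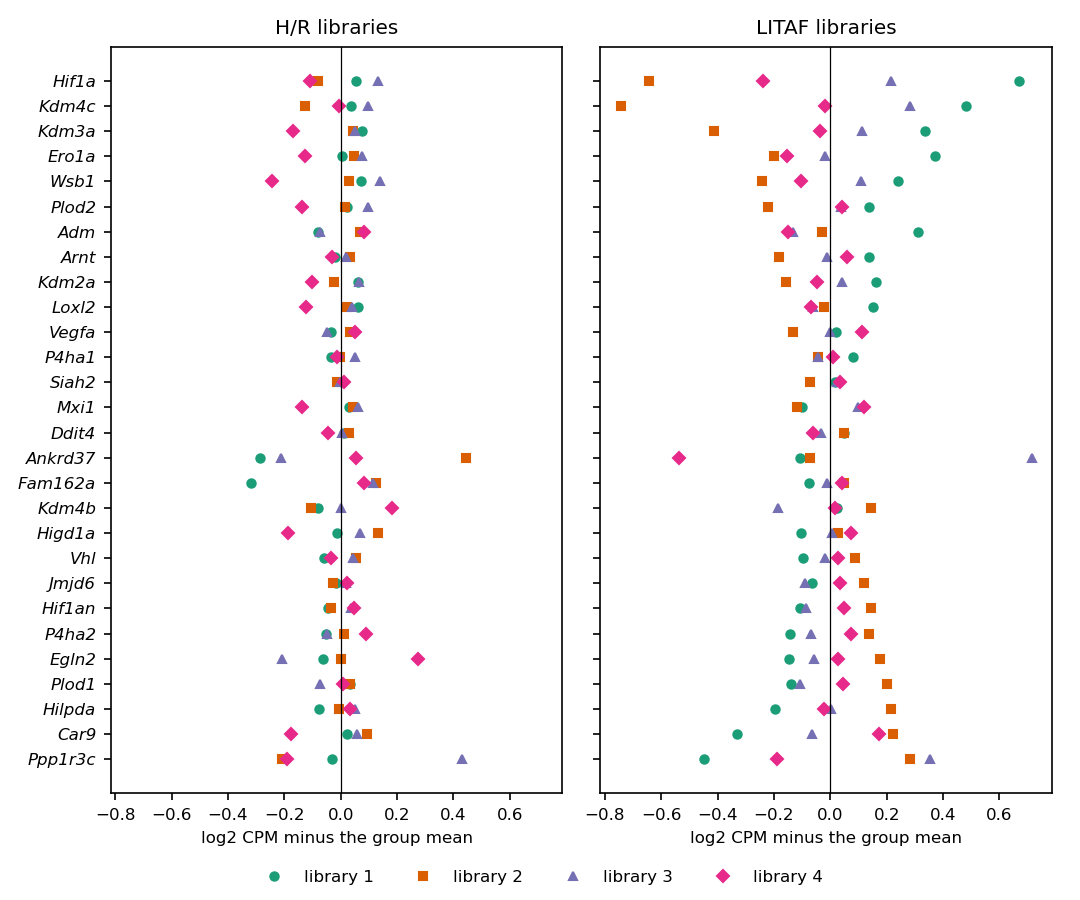
Log2 CPM of each tested member minus the mean of its group, for the 4 H/R libraries (left) and the 4 LITAF libraries (right), with members ordered by the ratio of LITAF library 1 to library 2. Hif1a, Kdm4c and Kdm3a at the top are highest in LITAF library 1 and lowest in library 2, while the H/R libraries stay closer to 0 in these genes.

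Further genes of the pathway came from 5 lists chosen with earlier results of these data known, so their counts are a description. After H/R, glycolytic and mitophagy targets of HIF rose in 19 of 22 tested (86.4%, against 31.8% of all genes). They fell in 0 (0 also at an unadjusted p under 0.05 and by DESeq2), with a median of log2 1.66. The mitophagy receptor gene Bnip3 went from 7.04 ± 0.922 to 84.7 ± 3.19 CPM and the glucose transporter gene Slc2a1 from 4.40 ± 0.544 to 30.5 ± 2.46 CPM (SD, n = 4). The kinase gene Pdk1, which holds pyruvate back from the mitochondria, rose by log2 2.76 ± 0.12 and the enolase gene Eno2 by log2 2.95 ± 0.14. Hk1, Pfkfb3 and Pfkfb4 did not pass, at log2 0.01, -0.01 and 0.05. Other hypoxia targets moved both ways, 12 up and 11 down of 28 tested (42.9% and 39.3%, against 31.8% of all genes in each direction). The haem-degrading enzyme gene Hmox1 rose by log2 4.75 ± 0.14, the glycogen-binding Stbd1 by 2.87 ± 0.14, the cytokine gene Mif by 2.45 ± 0.11 and the focal adhesion gene Tes by 1.83 ± 0.13. Among those that fell were the carbonic anhydrase gene Car12 (5.60 ± 3.67 to 0.659 ± 0.0557 CPM, SD, n = 4, with overlapping ranges), Bhlhe40 (log2 -0.82 ± 0.12) and Lox (log2 -0.86 ± 0.12), all known as HIF targets in other cells.

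Other HIF regulators split evenly, 4 up and 4 down of 15 tested (26.7% each, against 31.8% of all genes in each direction). Rack1, a scaffold that binds HIF1A, rose by log2 1.41 ± 0.11, the lectin gene Os9 by 1.12 ± 0.14 and Sart1 by 0.88 ± 0.12. Besides Arnt2, the falls were in the coactivator gene Ep300 (log2 -0.68 ± 0.16), in Cited2, whose product competes with HIF for that coactivator (log2 -0.76 ± 0.10), and in the ligase gene Siah1 (log2 -0.50 ± 0.12). Of the VHL ligase partners, Elob rose by log2 0.94 ± 0.15, while Eloc, Cul2 and Rbx1 did not pass, at log2 -0.04, -0.20 and 0.11. Among other 2-oxoglutarate dioxygenases, the enzyme class of the oxygen sensors, 11 rose and 8 fell of 30 (36.7% and 26.7%, near the 31.8% in each direction over all genes). Hspbap1, Alkbh5 and the lysyl hydroxylase gene Plod3 rose by log2 1.31 ± 0.12, 1.25 ± 0.12 and 1.09 ± 0.10, and Jmjd4 fell by 1.00 on the log2 scale.

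Genes for VEGF and adrenomedullin receptors and related ligands showed 3 rises and 5 falls in 10 tested (30% and 50%, against 31.8% of all genes in each direction). Of the receptors, the VEGF co-receptor gene Nrp1 fell from 1476 ± 171 to 71.3 ± 4.63 CPM, the VEGF receptor gene Flt1 from 96.8 ± 11.8 to 38.8 ± 1.43 CPM, and Ackr3, a scavenger of adrenomedullin and chemokines, from 532 ± 48.3 to 121 ± 9.01 CPM (SD, n = 4). Of the ligands, Vegfb rose by log2 1.20 ± 0.14, in the same direction as Vegfa, as did Pgf and Vegfc by 1.92 and 0.57, while Vegfd fell (log2 -2.57). Calcrl, the signalling receptor of adrenomedullin, was measured at 1.22 ± 0.421 CPM in control, 0.769 ± 0.179 CPM in H/R and 0.517 ± 0.225 CPM in the LITAF group. Its partner Ramp2 stood at 2.49, 1.08 and 0.820 CPM. After H/R against control Ramp2 fell (log2 -1.19 ± 0.195), whereas Calcrl did not pass (log2 -0.66). Both receptor genes were near the lower end of what could be tested, as was Pgf, at 0.278 CPM in control and 1.07 CPM in H/R.

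With LITAF against H/R, the list of other hypoxia targets held 8 rises and 2 falls in 28 tested genes (28.6% higher and 7.14% lower, against 3.73% and 1.15% of all genes). The remaining 4 lists held 3 rises and 0 falls, 1 rise each in 3 lists, at 3.33% to 6.67% of the tested genes of those lists. The RNA-decay factor gene Zfp36 went from 72.5 ± 4.09 to 158 ± 9.96 CPM, the stress-response gene Ier3 from 92.4 ± 3.97 to 175 ± 13.0 CPM, Pdgfb from 4.28 ± 0.483 to 8.60 ± 1.37 CPM and the endothelin gene Edn1 from 9.21 ± 0.938 to 14.6 ± 0.461 CPM (SD, n = 4). The falls were in the transferrin receptor gene Tfrc (log2 -1.02 ± 0.20) and Rassf1 (log2 -0.46 ± 0.12). Of the remaining lists, Cited2 rose by log2 0.44 ± 0.10, the demethylase gene Kdm6b by 0.47 ± 0.12 and the hexokinase gene Hk2 by 0.52 ± 0.10. In those 4 lists falls numbered 5 at an unadjusted p under 0.05 and 1 by DESeq2. No receptor or ligand of the VEGF and adrenomedullin list passed, with 2 higher and 1 lower at an unadjusted p under 0.05 and 1 higher by DESeq2.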

How the data were processed

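Per the file headers, the authors deposited raw read counts per gene with Ensembl rat gene IDs, and the values, not all whole, were treated as estimated counts. DESeq2 and edgeR are named in the submitters' processing notes, without their role. Which aligner, genome build, annotation and strand setting were used is not given in the sources used here. Polyadenylated RNA was sequenced, per the labels' protocols. Of 128 IDs on more than 1 row, 56 had identical rows and 1 was kept, and 72 with differing rows, none of them a member, were left out. Counts were rounded, filtered with filterByExpr by group, scaled by TMM and tested in 1 fit of all 12 libraries with edgeR 4.0.16 (glmQLFit, robust, quasi-likelihood F-test, two-sided; limma 3.58.1, R 4.3.3), with Benjamini-Hochberg adjustment over 11398 genes and a threshold of 0.05. The SE was taken as |log2 fold change| over the root of the F statistic. DESeq2 1.42.0 served as an alternative. Depth was 16.9 to 20.7 M counts per library. The upper limits given for groups without reads cover counting error only. The intervals of fold changes come from the fit and include its estimate of the spread between libraries.

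Groups and replicate numbers came from the sample titles, which name no shared culture. Deviations of log2(CPM + 1) from the group means were correlated across genes between libraries. Same-numbered libraries gave 0.32 to 0.56 for control and H/R and 0.12 to 0.31 for H/R and LITAF, all over 0.1. Libraries of other numbers gave -0.31 to -0.02 and -0.37 to 0.31 for these groups. For control and LITAF 1 of 4 same-numbered pairs was over 0.1. Of the LITAF libraries, 3 correlated more with an H/R library of another number than with their own. The fit behind the main calls did not pair libraries, and the replicate number entered as a block in alternatives only. The members and lists were chosen with earlier results of these data known. All members were to be named. Values by library were given for members called with LITAF and for up to 3 per role with the largest change after H/R. From each further list up to 4 called genes with the smallest p were named, and a few more, chosen after their values were seen (the falls named in other hypoxia targets, receptor partners, the VHL ligase partners and genes just short of a threshold). Alternatives covered scaling, filter, tool, fit, block, threshold, duplicate rows, promoter window, and each library left out.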

Additional observations from a re-analysis of the deposited data

Results flagged for a closer look

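A sample far from the other 3 of its group was found in 4 of 84 sets of 4 values (28 members in 3 groups). Chance alone flags about 1 in 20, or 4.2 here. Car9 stood at 128 CPM in control library 2, against 77.3 to 82.2 CPM in the other control libraries. Kdm4b stood at 6.96 CPM in control library 4, against 4.64 to 5.00 CPM. Kdm3a stood at 66.1 CPM in H/R library 4, against 76.6 to 78.3 CPM. Fam162a stood at 90.9 CPM in H/R library 1, against 120 to 124 CPM. The 4 values came from 4 different libraries.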

How the results depend on the processing

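After H/R against control, 22 members rose in each of the 22 alternatives run, the 12 with a library left out among them, and none fell except with DESeq2, where 1 (Kdm2a, log2 -0.21, adjusted p = 0.0285) was called lower. With LITAF against H/R, Adm stayed called higher in all 22. The count of rises was 3 and of falls 1 in a fit of only the 2 groups compared, 2 with the replicate block, and 2 with the block in a fit of the 2 groups, an alternative chosen after seeing the data; with a library left out it ran from 1 to 2 for rises and from 0 to 0 for falls. It was 2 without control library 4 (Kdm4b, adjusted p = 0.0452 by edgeR's test) and without LITAF library 1 (Ppp1r3c, log2 0.81, adjusted p = 0.0280). In the fit of all libraries the block ended no call among the members; in the fit of the 2 groups it ended those of Kdm4b and Jmjd6 (adjusted p = 0.0561 and 0.0629). For LITAF against control, 22 to 23 rose and none fell with a library left out, and 23 with upper-quartile scaling and library totals alone, where Hif1an (both scalings, without control library 4 or without LITAF library 1) or Car9 (log2 0.43, without control library 2) was the added gene. No called member changed sign. Members that did not pass, and whose sign changed in at least 1 alternative, numbered 4, 8 and 3 in the 3 comparisons, with Hif1a from -0.28 to 0.15 for LITAF against H/R. Over all genes, LITAF against H/R gave 556 calls, 1098 in the fit of 2 groups, 902 with DESeq2, 873 with the block, 887 with both, 182 at an adjusted p under 0.01, and 244 to 1285 with a library left out (fewest without H/R library 3 or LITAF library 4, most without LITAF library 1; 272, 279, and 365 without H/R libraries 1, 2 and 4, and 322 without LITAF library 3). Of the 30 promoter windows, 19 held the motif in the 250 bases before the start alone and 22 outside CACGTG alone, against 22. The cause of these changes was not tested. Few reads limit the precision for Ankrd37 (2 to 31 per library).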
